A study of Homo sapiens with 8 samples.

Results

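The annexin genes taken here were 9 members chosen by symbol, ANXA1, ANXA2, ANXA3, ANXA4, ANXA5, ANXA6, ANXA7, ANXA9 and ANXA11, among the 58302 genes of the count table. All 9 passed the filter on low counts, so that they are 9 of the 14133 genes tested. DLD1 is a colorectal cancer line of human origin. RNA sequencing set its cells with a stably integrated lentiviral construct for wild-type TRMT6/61A (OE-WT) against the same cells with the vector (CTRL), with 2 libraries per group. The cells of all 4 libraries were washed in cold buffer with cycloheximide, an inhibitor of translation, before lysis, and the labels name no other drug. TRMT6 and TRMT61A form the complex that methylates adenosine in tRNA, and the comparison asks which transcripts differ when this complex is raised. Each group is a single stable line on one cell line background, the labels describe duplicate cultures, and separate transductions are not stated. The p-values therefore measure the spread between these libraries.

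Annexins are cytosolic proteins that bind the inner face of membranes through phosphatidylserine and other acidic phospholipids when calcium rises. They organise membrane domains, vesicle traffic and the repair of plasma membrane wounds, and several work as complexes with small S100 calcium-binding proteins. Epithelial cells, including those of the colon, express several family members at high levels. In brief, ANXA5 and ANXA6 rose 1.22-fold and 1.28-fold in OE-WT cells, ANXA2 dominated the family and did not pass the test, and the other 6 members did not pass it either.

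Both TRMT genes were higher in the libraries labelled OE-WT, which checks the labels. TRMT6 stood at 211 and 181 CPM (counts relative to a library total scaled for composition) in OE-WT and at 52.6 and 55.4 CPM in CTRL. TRMT61A stood at 137 and 130 CPM against 58.9 and 56.8 CPM. Library totals ran from 10327498 to 12379671 counts, both CTRL libraries being the deeper ones. All 10 colorectal epithelial markers were tested. At an edgeR adjusted p below 0.05, 4 fell and 2 rose, beside 11.6% and 9.44% of all genes tested. KRT20, a keratin of differentiated colon epithelium, fell by 1.52 on the log2 scale. The log2 fold changes of CDH17, CDH1 and KRT19 were -0.45, -0.29 and -0.19, and those of KRT18 and KRT8 were 0.30 and 0.25. The calls of KRT8, KRT18 and KRT19 were each lost under an alternative, with adjusted p up to 0.303, 0.153 and 0.778. The summed epithelial markers stood at 12208 and 12553 CPM in OE-WT and 11214 and 11011 CPM in CTRL. KRT8 was the largest of them, at 5914 and 6109 against 5124 and 4973 CPM. The summed counts per library were 25 to 32 for 6 fibroblast markers, 6 to 30 for 3 endothelial markers and 18 to 34 for 6 immune markers. COL1A2, COL3A1, DCN, CDH5, CD3E and MS4A1 were at 0 in all 4 libraries. VWF, the 1 endothelial marker tested, was lower in OE-WT at 5 and 6 against 30 and 14 counts (log2 fold change -1.65, edgeR adjusted p = 0.018). These counts are few and uneven in CTRL. With 1 library left out in turn the log2 fold change ran from -2.07 to -1.04, and the call did not hold throughout. The part of the epithelial and VWF differences in the annexin values was not tested.

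The promoters of the 2 members that rose are shown because they moved in the same direction. Each window runs from 250 bases before to 50 bases after the annotated start (RefSeq, GRCh38.p14, minus strand, written 5′ to 3′). Capitals mark the motifs searched on both strands. The GC box is GGGCGG, which appears as CCGCCC when it lies on the other strand. The CCAAT box appears as ATTGG when it lies there. The TATA box is TATAAA and the E-box, which reads the same on both strands, is CACGTG. ANXA5 lies on chr4:121667946-121696995 and ANXA6 on chr5:151100706-151157815.
ANXA5 promoter, chr4:121696931-121697230: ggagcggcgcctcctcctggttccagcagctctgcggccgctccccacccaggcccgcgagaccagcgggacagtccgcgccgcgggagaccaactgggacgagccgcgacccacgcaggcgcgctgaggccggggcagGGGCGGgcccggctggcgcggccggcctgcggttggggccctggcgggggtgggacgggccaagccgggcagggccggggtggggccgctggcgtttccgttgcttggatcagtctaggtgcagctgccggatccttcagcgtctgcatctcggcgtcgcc
ANXA6 promoter, chr5:151157730-151158029: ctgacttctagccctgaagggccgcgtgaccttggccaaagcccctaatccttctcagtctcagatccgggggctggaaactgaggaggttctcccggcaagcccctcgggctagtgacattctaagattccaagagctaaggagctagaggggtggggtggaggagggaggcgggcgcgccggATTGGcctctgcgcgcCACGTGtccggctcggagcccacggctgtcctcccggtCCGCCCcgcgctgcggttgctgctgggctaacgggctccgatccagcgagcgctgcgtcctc
The ANXA5 window held 1 GC box at base 140, 36 CG dinucleotides and 76.3% G and C. The ANXA6 window held 1 CCAAT box at base 185, 1 E-box at base 201, 1 GC box at base 239, 25 CG dinucleotides and 66.3% G and C. The GC box was thus the one motif of the 4 found in both. It was not particular to them, as the windows of ANXA2, ANXA4, ANXA7 and ANXA11 held 3, 6, 3 and 4. None of those members was called, and the windows of ANXA1, ANXA3 and ANXA9 held no GC box. Over 35116 RefSeq promoter windows of the same length, GGGCGG was present in 45.0%, CCAAT in 34.6%, TATAAA in 11.5% and CACGTG in 7.26%. In the first window of 10175 tested genes the shares were 70.8%, 36.6%, 5.56% and 10.0%, so a GC box was common there. The other members ranged from the ANXA1 window, with 37.7% G and C and 0 CG dinucleotides, to that of ANXA4, with 78.0% and 44. A match of these letters is a description and not a binding site.

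Levels between genes were compared as CPM per kilobase (kb) of the canonical transcript. ANXA2 stood first in every library, at 1341 and 1378 CPM per kb in OE-WT and at 1519.5 and 1484 in CTRL. Its raw counts placed it 30th among all genes. ANXA5 came next, at 211 and 224 CPM per kb in OE-WT and 177 and 180 in CTRL. ANXA3 followed, at 86.2 and 79.3 in OE-WT and 80.0 and 87.8 in CTRL. ANXA1 stood at 69.7 and 68.7 in OE-WT and 63.6 and 72.8 in CTRL. Within each group the 2 libraries of ANXA3 lay above those of ANXA1. ANXA4 and ANXA6 were neighbours whose order differed between the groups. ANXA4 stood at 32.7 and 35.0 in CTRL and 36.0 and 37.1 in OE-WT. ANXA6 stood at 32.0 and 32.4 in CTRL and 41.6 and 40.5 in OE-WT, below ANXA4 in the former and above it in the latter. ANXA7 and ANXA11 could not be ordered, since their libraries overlapped in both groups between 23.3 and 26.0 CPM per kb. ANXA9 was the lowest, at 7.21 and 8.49 in OE-WT and 6.57 and 6.18 in CTRL. The order below ANXA3 depends on the length used: per kb of all annotated exonic bases, the CTRL mean of ANXA7 was 21.7 and that of ANXA1 was 21.5. By that length the CTRL mean of ANXA6 was 16.9, above that of ANXA4 at 8.11, so their change of order was not seen.

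ANXA5, the annexin whose binding to exposed phosphatidylserine is used to detect dying cells, rose in OE-WT. The OE-WT libraries had 3426 and 3737 counts and the CTRL libraries 3730 and 3639, which are 345 and 367 CPM against 290 and 295 CPM. Both OE-WT libraries lay above both CTRL libraries once the libraries were scaled, although the raw counts overlapped. The means were 356 ± 15.6 and 293 ± 3.86 CPM (SD, n = 2 each). The log2 fold change was 0.28 with a standard error (SE) of 0.06, a 1.22-fold rise with a 95% interval of 1.11 to 1.34, and the p adjusted by Benjamini-Hochberg over all genes was 0.0031 in the quasi-likelihood test of edgeR. With libraries scaled by total count only, the log2 fold change was 0.19 and the call was lost (adjusted p = 0.0966 in the same edgeR test). In a bulk library, a larger share of cells expressing a gene and more RNA per cell cannot be told apart.

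ANXA6, a large annexin with a duplicated core that is known from endosomes and cholesterol traffic, also rose. The OE-WT libraries had 1194 and 1191 counts and the CTRL libraries 1190 and 1153, which are 120 and 117 CPM against 92.5 and 93.6 CPM. The nearly equal raw counts came from CTRL libraries with larger totals, and the scaled groups did not overlap. The means were 119 ± 2.29 and 93.0 ± 0.773 CPM (SD, n = 2 each). The log2 fold change was 0.35 with an SE of 0.07, a 1.28-fold rise with a 95% interval of 1.16 to 1.40 and an edgeR adjusted p of 6.9e-04. It stayed called in all 11 alternatives, with log2 fold changes from 0.26 to 0.39 and adjusted p from 0.00035 to 0.018.

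**Figure D1:**
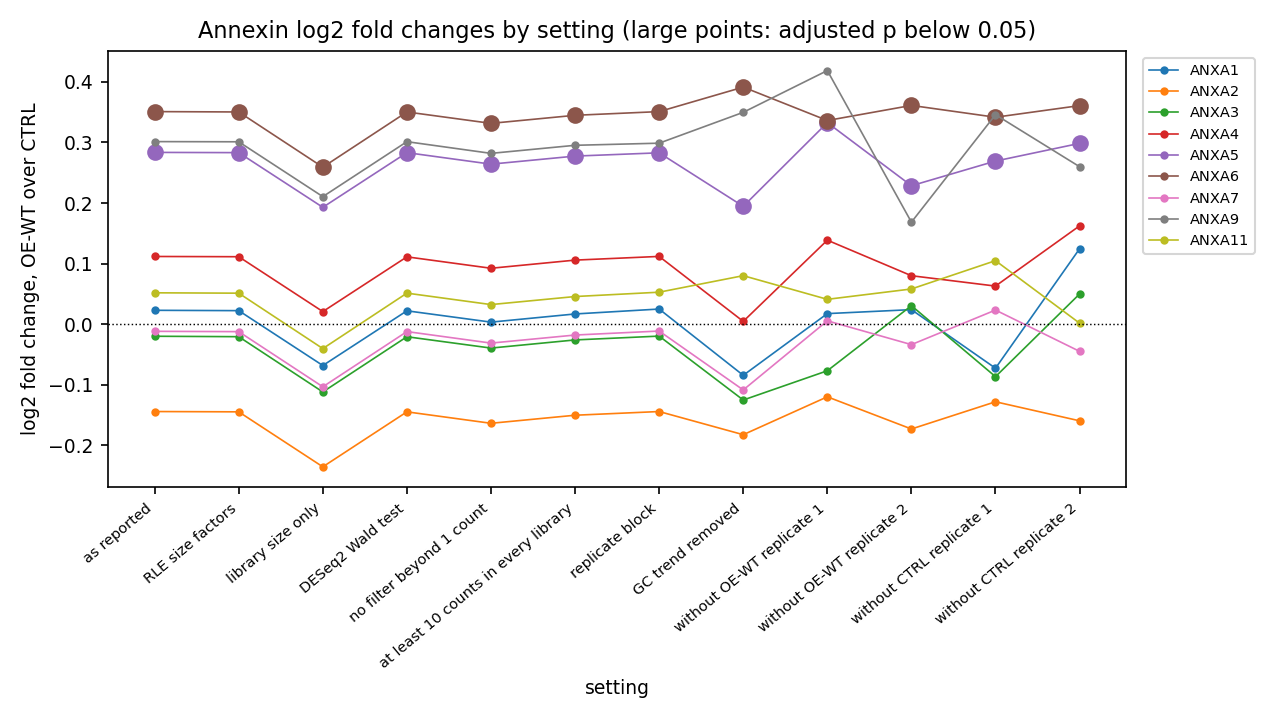
Log2 fold change of each annexin, OE-WT over CTRL, as reported and under the 11 alternatives, with large points for an adjusted p below 0.05 and lines only to link the points of a gene. ANXA6 is called at every setting, ANXA5 at all but library size only, and the other 7 members at none.

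ANXA2, which pairs with S100A10 in a plasma membrane complex that binds plasminogen, lies on chr15:60347134-60402883 on the minus strand. The OE-WT libraries had 20688 and 21783 counts and the CTRL libraries 30378 and 28419, which are 2084 and 2141 CPM against 2361 and 2307 CPM. Both OE-WT libraries were below both CTRL libraries. The means were 2112 ± 40.05 and 2334 ± 38.5 CPM (SD, n = 2 each). The log2 fold change was -0.14 with an SE of 0.07 and a 95% interval of -0.29 to -0.0014. The unadjusted p was 0.048 and the adjusted p 0.144 in the edgeR test, so ANXA2 was not called, and the same p ran from 0.056 to 0.471 over the alternatives.

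ANXA2 has processed pseudogenes, copies of its mRNA elsewhere in the genome, and reads from a stretch that is identical in a copy cannot be placed with certainty. ANXA2P2, on chr9:33624274-33625293 on the plus strand, was 98.4% identical to the canonical ANXA2 transcript, with 16 differences over 1021 aligned columns. Of its 871 stretches of 150 bases, 115 (13.2%) were identical in ANXA2. The 60 bases where the pair differs most show what separates them, with the 5 differing bases in capitals. The ANXA2 stretch is read from the coding sequence, coding bases 766 to 825 of the GENCODE 44 transcript, and the other from GRCh38, plus strand.
ANXA2 coding sequence: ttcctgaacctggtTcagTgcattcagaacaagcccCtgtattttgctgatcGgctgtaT
ANXA2P2, chr9:33625039-33625098: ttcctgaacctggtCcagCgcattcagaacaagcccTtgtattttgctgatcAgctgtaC
ANXA2P2 had 169 and 195 counts in OE-WT against 262 and 252 in CTRL. Per 100 ANXA2 counts these are 0.817 and 0.895 against 0.862 and 0.887, groups that overlap. Its log2 fold change was -0.17 with an SE of 0.12 and an edgeR adjusted p of 0.323. ANXA2P1, 93.7% identical, had 2, 3, 2 and 1 counts, and ANXA2P3, 91.5% identical, had 0 in all. Neither had an identical stretch of 150 bases. With ANXA2 and these pseudogenes summed as 1 gene, the log2 fold change stayed at -0.14 with an edgeR adjusted p of 0.144.

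The remaining 6 members did not pass the test, and their intervals bound the size of any difference. ANXA9, an annexin known for altered calcium sites, lies on chr1:150982249-150995634 on the plus strand and had 111 and 134 counts in OE-WT against 131 and 118 in CTRL. The CPM were 11.2 and 13.2 against 10.2 and 9.58, without overlap. Its log2 fold change of 0.30 was close to those of ANXA5 and ANXA6, but its SE was 0.15, its interval -0.02 to 0.62 and its adjusted p 0.175 in the edgeR test. A difference of the size seen for ANXA6 was within its interval, as was none.
ANXA4, an annexin of epithelial membranes, on chr2:69644425-69827112 on the plus strand, stood at 95.4 and 98.4 CPM in OE-WT and 86.7 and 92.7 CPM in CTRL. The groups did not overlap, and the log2 fold change was 0.11 with an interval of -0.03 to 0.26. ANXA11, known for tethering RNA granules to lysosomes, on chr10:80150889-80205572 on the minus strand, stood at 171 and 167 CPM against 169 and 157 CPM. Its groups overlapped, with a log2 fold change of 0.05 and an interval of -0.09 to 0.19.
ANXA1, the annexin whose secreted form signals through formyl peptide receptors, on chr9:73151865-73170393 on the plus strand, stood at 97.7 and 96.3 CPM in OE-WT and 89.1 and 102 CPM in CTRL. The OE-WT values lay between the CTRL values, and the interval was -0.13 to 0.18 around 0.02. ANXA3, on chr4:78551747-78610451 on the plus strand, stood at 124 and 114 CPM against 115 and 126 CPM, an overlap with an interval of -0.17 to 0.13 around -0.02. ANXA7, first known as synexin for its effect on granule fusion, on chr10:73375101-73414076 on the minus strand, stood at 61.0 and 62.1 CPM against 63.6 and 60.6 CPM, an overlap with an interval of -0.17 to 0.14 around -0.01. For these 3 genes the intervals hold no difference above 0.18 in size.
The adjusted p of ANXA4, ANXA11, ANXA1, ANXA3 and ANXA7 were 0.274, 0.627, 0.861, 0.876 and 0.931 in the edgeR test. ANXA4 overlaps AAK1 on the opposite strand, with 280 to 374 counts per library, and ANXA7 contains a lncRNA, ENSG00000233144, on the opposite strand, with 109 to 145 counts. The library kit keeps strand, but the strand setting of the counting is not given in the sources used here, so reads of these pairs may not be fully told apart.

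**Figure D2:**
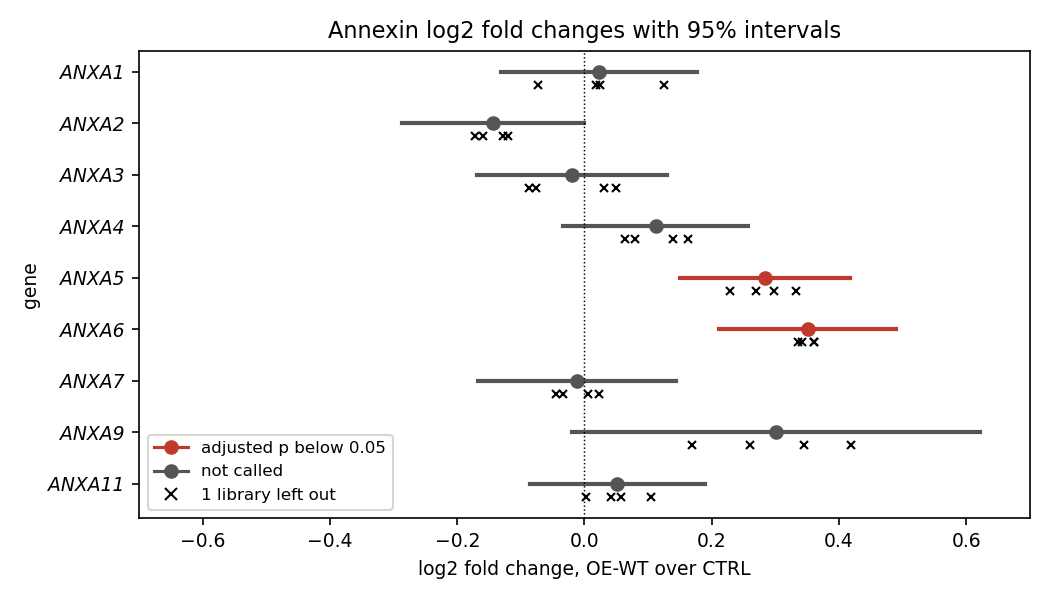
Log2 fold change of each annexin, OE-WT over CTRL, with its 95% interval (bar) and the value with each of the 4 libraries left out (crosses). The red intervals of ANXA5 and ANXA6 lie above 0, that of ANXA2 runs from -0.29 to -0.0014, and the other 6 include 0.

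Of the 9 members, 2 passed an adjusted p below 0.05, beside 21.1% of all genes tested. In the higher direction it was 2 of 9 beside 9.44%, and in the lower direction 0 of 9 beside 11.6%. At an unadjusted p below 0.05 ANXA2 was the 1 member that was lower, and the share of all genes at that threshold was not computed. DESeq2 called the same 2 genes, ANXA5 and ANXA6, and none lower, beside 1373 of all 14133 genes tested in either direction. The CPM of the groups did not overlap for 5 of 9 members, beside 60.2% of all genes. None of the 9 reached the thresholds used by the study, an unadjusted p below 0.05 with a log2 fold change above 1 in size, beside 3.15% of all genes, and the largest change among the members was 0.35. A count of 2 of 9 is near the edgeR share over all genes, and is no result about the family as a whole. The median log2 fold change was 0.05 over the members and 0.01 over all genes, with 6 members above 0 and 3 below.

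ANXA2 held a smaller share of the annexin counts in both OE-WT libraries than in either CTRL library. The summed annexin counts were 0.295% and 0.313% of all gene counts in OE-WT, against 0.341% and 0.331% in CTRL, without overlap, and ANXA2 alone carried 67.0% and 67.4% of them in OE-WT and 72.1% and 71.1% in CTRL. Without ANXA2 the other 8 made up 0.0973% and 0.102% in OE-WT and 0.0951% and 0.0957% in CTRL. The ratio of the group means was therefore 0.905 for the whole family and 1.044 without ANXA2, so the direction of the sum was that of ANXA2. These shares use library totals that are not scaled for composition. In scaled CPM the members summed to 3109 and 3176 in OE-WT against 3277 and 3244 in CTRL. The size of the difference thus depends on the scaling, and is smaller in scaled CPM.
A ratio of counts within a library needs no scaling. For each 100 ANXA2 counts there were 16.6 and 17.2 ANXA5 counts in OE-WT against 12.3 and 12.8 in CTRL, a ratio of means of 1.34. For ANXA6 the same quantity was 5.77 and 5.47 against 3.92 and 4.06, a ratio of 1.41. ANXA9 stood at 0.537 and 0.615 against 0.431 and 0.415. These 3 groups did not overlap, nor did those of ANXA4, ANXA11, ANXA7 and ANXA1. ANXA3 overlapped at 5.93 and 5.30 against 4.85 and 5.45. The CPM of ANXA11, ANXA7 and ANXA1 did overlap between the groups, and ANXA2 itself was lower in both OE-WT libraries. The share of all genes whose ratio to ANXA2 separates the groups was not computed, so the separation is no result about the members. All these ratios share ANXA2 as the denominator, and they show unequal change between 2 genes, not which one changed.

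**Figure D3:**
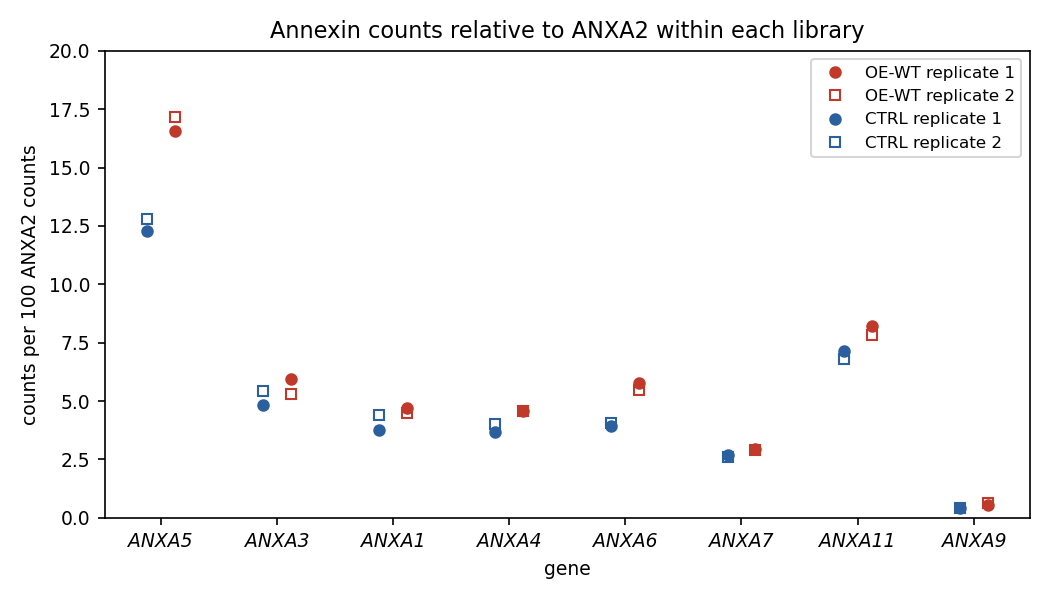
Counts of each other annexin for every 100 ANXA2 counts in the same library, on a linear axis from 0. ANXA5 stands at 16.6 and 17.2 in the OE-WT libraries against 12.3 and 12.8 in CTRL, and ANXA3 alone has overlapping groups.

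The 4 other annexin genes were at or near 0. ANXA8, known from squamous epithelium, had 1 and 5 counts in OE-WT against 4 and 1 in CTRL. ANXA8L1, its near-identical copy, had 9 and 10 against 14 and 13, with a log2 fold change of -0.18 and an edgeR adjusted p of 0.809, and reads of this pair may be split by the counting. ANXA10, a gastric annexin, and ANXA13, an annexin of intestinal epithelium, had 0 counts in all 4 libraries, where 3 counts would be 0.233 to 0.302 CPM. The 9 members lay well above this floor in every library, the lowest value being 9.58 CPM for ANXA9.

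S100 proteins bind annexin amino-terminal tails as dimers, and their genes moved in both directions. S100A10, the partner of ANXA2, stood at 607 and 653 CPM in OE-WT and 560 and 543 CPM in CTRL, without overlap. Its log2 fold change was 0.19 with an SE of 0.07 and an edgeR adjusted p of 0.041, and 9 of 11 alternatives lost the call, with adjusted p from 0.029 to 0.452 over the 11. Per 100 ANXA2 counts there were 29.1 and 30.5 S100A10 counts in OE-WT against 23.7 and 23.5 in CTRL. The partners therefore differed in sign, with S100A10 higher and ANXA2 at -0.14 without a call.
S100A6, which binds ANXA2, ANXA6 and ANXA11, fell from 273 and 245 CPM in CTRL to 187 and 203 CPM in OE-WT. The log2 fold change was -0.41 with an SE of 0.07 and an edgeR adjusted p of 2.5e-04. S100A11, the partner of ANXA1, stood at 116 and 117 CPM against 113 and 107 CPM, with a log2 fold change of 0.08 and an edgeR adjusted p of 0.420. S100A4 had 40 and 49 counts against 79 and 61, with a log2 fold change of -0.33 and an edgeR adjusted p of 0.308. Of the 4 S100 genes, 1 rose and 1 fell, beside 9.44% and 11.6% of all genes tested. Their median was -0.12, beside 0.01 over all genes.

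Among 7 other partners and receptors, 4 were tested and 0 were called by edgeR, beside 21.1% of all genes. With libraries scaled by total count only edgeR called 1, beside 3184 of all 14133 genes. With a GC trend removed it also called 1, beside 2846. At an unadjusted p below 0.05 there was 1, lower in OE-WT, a threshold whose share over all genes was not computed. DESeq2 called 0, beside 1373 of all 14133 genes tested. The formyl peptide receptor genes, which encode the receptors of secreted annexin A1, were near 0, with FPR1 at 2 and 2 counts against 1 and 1, and FPR2 and FPR3 at 0 in all 4 libraries.
Of 20 genes of plasma membrane repair, 19 were tested, and 2 rose and 1 fell, beside 9.44% and 11.6% of all genes. Their median was 0.01. CHMP3 and CHMP4B, subunits of the ESCRT-III filaments that seal membranes, had log2 fold changes of 0.30 and 0.21 with edgeR adjusted p of 0.025 and 0.049. Both calls were lost in edgeR with libraries scaled by total count only, at adjusted p of 0.145 and 0.358. The same held with no filter beyond 1 count, at 0.0868 and 0.166. RLE scaling, a raised filter and a replicate block each lost CHMP4B and kept CHMP3. Removing a GC trend lost CHMP3 and kept CHMP4B. EHD2, a caveola-associated ATPase, had 25 and 31 counts in OE-WT against 66 and 75 in CTRL, a log2 fold change of -1.01 with an SE of 0.24 and an edgeR adjusted p of 0.0043. DESeq2 called 0 of the 19, beside 1373 of all 14133 genes tested. Its adjusted p were 0.0565 for EHD2, 0.192 for CHMP3 and 0.245 for CHMP4B.
Copines and extended synaptotagmins also meet membranes through calcium-binding domains. Of 12 genes, 7 were tested, and 0 rose and 2 fell in edgeR, beside 9.44% and 11.6% of all genes. Their median was -0.01. At an unadjusted p below 0.05 none was higher and 2 were lower, a threshold whose share over all genes was not computed. ESYT1, which tethers the endoplasmic reticulum to the plasma membrane, stood at 510 and 510 CPM in OE-WT and 616 and 625 CPM in CTRL, without overlap, with a log2 fold change of -0.28, an SE of 0.06 and an edgeR adjusted p of 0.0027. ESYT2, of the same family, had a log2 fold change of -0.26 with an edgeR adjusted p of 0.011, and DESeq2 called ESYT1 but not ESYT2 (adjusted p = 0.0923).
Scramblases and flippases set how much phosphatidylserine, the ligand of ANXA5, faces outwards. Of 13 such genes, 9 were tested and edgeR called 0, beside 21.1% of all genes, with a median of 0.00496. It called 1 with libraries scaled by total count only, and 1 with a GC trend removed, beside 3184 and 2846 of all 14133 genes. At an unadjusted p below 0.05 there were 2 higher and 1 lower. The share of all genes at that threshold was not computed, so these counts are no result about the list. DESeq2 called 0, beside 1373 of all 14133 genes tested.
ANXA1 is a known target of glucocorticoids, so 5 other glucocorticoid-induced genes were set beside it, together with NR3C1, the gene of the glucocorticoid receptor. Of these 6 genes, 4 were tested, all of them from the induced set. Of those 4, 1 rose and 2 fell, beside 9.44% and 11.6% of all genes tested. The lists were chosen with earlier results of these data known, so this count is no result about glucocorticoid genes. FKBP5, a chaperone of steroid receptors, stood at 10.7 and 9.83 CPM in OE-WT and 4.28 and 5.68 CPM in CTRL, a log2 fold change of 1.04 with an SE of 0.19 and an edgeR adjusted p of 3.7e-04. PER1, a circadian clock repressor, stood at 11.8 and 12.8 CPM against 31.6 and 23.9 CPM, a log2 fold change of -1.18 with an SE of 0.14 and an edgeR adjusted p of 3.1e-06. DUSP1, a phosphatase of MAP kinases, had a log2 fold change of -0.33 with an edgeR adjusted p of 0.023, and DESeq2 did not call it (adjusted p = 0.142). NR3C1, given here after its counts were seen, had 0 and 0 counts in OE-WT against 2 and 0 in CTRL.

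**Figure D4:**
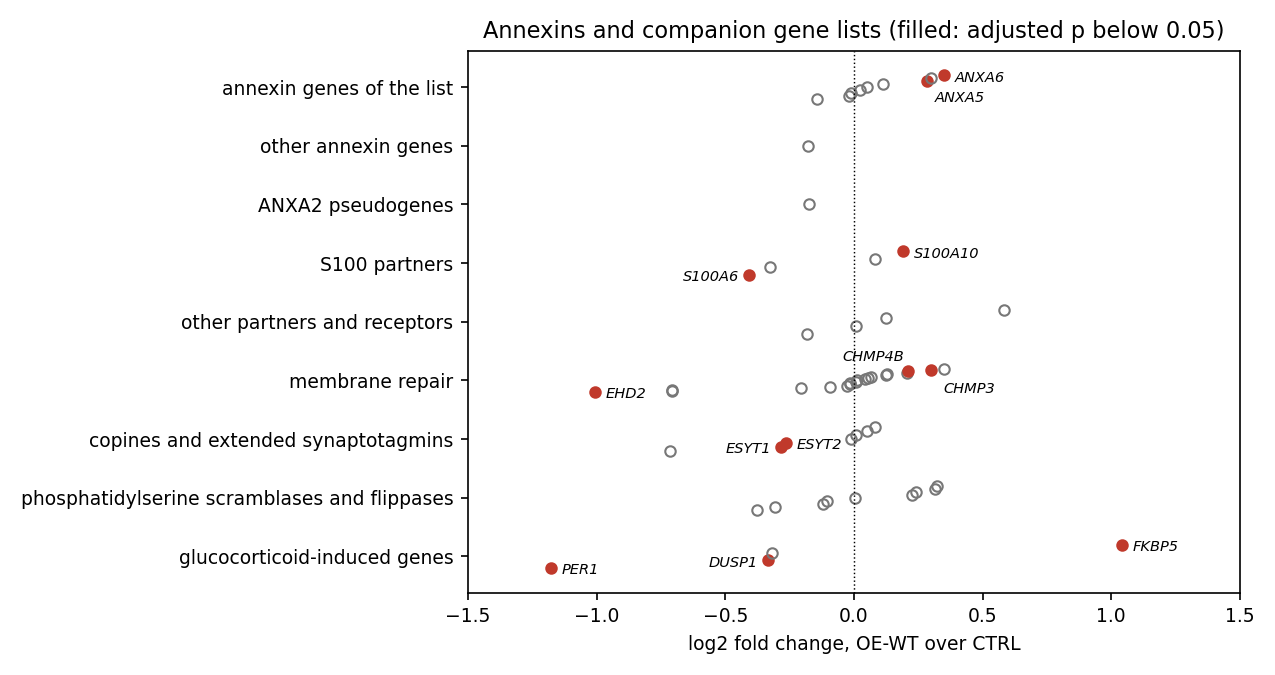
Log2 fold change, OE-WT over CTRL, of every tested gene of the annexin list and of the 8 companion lists, 1 row per list, with filled red points for an adjusted p below 0.05. ANXA5 and ANXA6 sit at 0.28 and 0.35, and PER1, EHD2 and FKBP5 lie farthest from 0.

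The coding sequences were read for GAG and GAC, the glutamate and aspartate codons that match the anticodons of tRNA-Glu-CTC and tRNA-Asp-GTC. The study examined these codons and also named tRNA-Ala-TGC and tRNA-Leu-CAA, which match GCA and TTG. Across its transcripts it saw no simple linear relation of GAG and GAC frequency to the fold change of translation efficiency. It also reported raised activity of GAC and GAG reporters in OE-WT cells. There, ARG2 with these codons replaced gave less protein than wild-type ARG2, and the study proposes a selective enhancement. ANXA6 had the highest share, 10.8% of its 673 codons, a percentile of 91.1 among 11620 coding genes tested. ANXA2 had 7.96%, ANXA9 7.83%, ANXA4 6.85% and ANXA3 6.50%. ANXA1 had 6.36%, ANXA11 6.34%, ANXA5 5.63% and ANXA7 3.43%. Thus 5 annexins lay above the median gene, at 6.43%, and the 2 members that rose lay on either side of it. With GCA and TTG added, ANXA6 had 14.0% and ANXA5 8.44%, again on either side of the median gene at 9.46%. By that share ANXA1 lay above the median, at 11.3%, and ANXA4 below it, at 9.35%. These shares describe the sequences, and RNA counts do not measure translation.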

How the data were processed

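The table holds raw read counts per gene, deposited by the authors with 1 column per library. RNA came from lysates of cycloheximide-washed cells. The study's methods name Cutadapt, HISAT2, HTSeq and edgeR, and the submitters' processing notes name HISAT2 2.2.1, featureCounts 2.0.0 and DESeq2 1.34.0 with GRCh38, and which was used for this table is not settled. The labels describe poly(A) selection and 2 replicates, each on lanes 1 and 3, where the study's methods describe removal of ribosomal RNA and 3 biological replicates. The annotation release and strand setting used for counting are not given in the sources used here. The 8 listed samples are lanes of 4 libraries, and the lanes could not be analysed apart.

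GENCODE release 44 on GRCh38 gave symbols for 57532 of 58302 rows, together with positions, canonical transcripts and codons. Counts were fitted in edgeR 4.0.16 (R 4.3.3) after filterByExpr (groups given, minimum count 10) and TMM scaling, with the quasi-likelihood test and no block. Benjamini-Hochberg adjustment ran over 14133 genes. The members and lists were chosen with earlier results of these data known. Named genes were all members, other annexins, ANXA2 pseudogenes and S100 partners, called genes of the other lists (at most 4 per list), the formyl peptide receptors and the TRMT genes. Every gene named beyond these, apart from cell type markers and genes overlapping a member, is named so in the text. CPM use TMM-scaled totals. A count of 0 allows up to 3 counts. That floor reflects counting error only, while the fitted intervals also hold the spread between libraries. With 2 libraries per group an exact two-sided permutation test cannot go below p = 0.333. As alternatives, libraries were scaled by RLE or by total count only, DESeq2 1.42.0 replaced edgeR, the filter was dropped to 1 count or raised to 10 counts in each library, the replicate number entered as a block, a lowess GC trend (span 0.3) was removed, each library was left out, and ANXA2 was summed with its pseudogenes. Figures were drawn in matplotlib 3.10.9 under Python 3.11.15. Cells with mutant TRMT6/61A, and the tRNA and ribosome profiling data, were not analysed here.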

Additional observations from a re-analysis of the deposited data

How the results depend on the processing

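Over 11 alternatives per gene and 1 more for ANXA2, 91 of 100 annexin values kept their direction and their side of the threshold. With libraries scaled by total count only, the members called fell from 2 to 1, because ANXA5 went to 0.19, and the median log2 fold change of all genes moved by -0.0916. That scaling also turned ANXA1 to -0.068 and ANXA11 to -0.0402, and the calls over all genes from 1334 higher and 1642 lower to 733 and 2451, so that higher calls went from 44.8% to 23.0%. With the GC trend removed, ANXA1 was -0.0842, ANXA5 kept its call at an edgeR adjusted p of 0.0462, and ANXA4 went from 0.11 to 0.0047. None of the members that changed sign was called in either direction, and their causes were not tested.

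When 1 library was left out, the group with 1 library is assumed to vary like the other, and the members called stayed at 2 each time. ANXA1 then ran from -0.0725 without CTRL replicate 1 to 0.124 without CTRL replicate 2. ANXA3 ran from -0.0865 without CTRL replicate 1 to 0.0499 without CTRL replicate 2, and was also above 0 without OE-WT replicate 2 (0.0306). ANXA7 ran from -0.0447 without CTRL replicate 2 to 0.0234 without CTRL replicate 1, and was also above 0 without OE-WT replicate 1 (0.0057). Over all genes 2976 were called, from 1903 without CTRL replicate 1 to 2852 without OE-WT replicate 2, and 1373 with DESeq2, of which 1372 were also called by edgeR. At the study's thresholds there were 445, with 429 to 570 when a library was left out, 288 with DESeq2, 738 with no filter beyond 1 count (26095 genes tested) and 216 with the filter raised to 10 counts in each library (13094 tested).

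The replicate numbers were not taken as pairs, since same-numbered libraries deviated with a correlation of -0.0681. With the replicate number as a block 2658 genes were called, 2602 of them also without the block, and the members called stayed at 2. Per companion list, the S100A10 call was lost under the block (adjusted p = 0.127) and so was that of CHMP4B (adjusted p = 0.095), both from edgeR. On library totals not scaled for composition, the summed annexin share went from a ratio of 0.905 to 1.044 without ANXA2. ANXA9, at 111 to 134 counts per library, had the widest interval of the members. S100A10 lost its call without OE-WT replicate 2 (0.13), without CTRL replicate 1 (0.21) and without CTRL replicate 2 (0.17), and CHMP4B without OE-WT replicate 1 (0.21), without OE-WT replicate 2 (0.20) and without CTRL replicate 2 (0.13). DUSP1 lost its call without OE-WT replicate 2 (-0.18) and without CTRL replicate 1 (-0.29), ESYT2 without OE-WT replicate 2 (-0.24), CHMP3 without OE-WT replicate 1 (0.27) and without CTRL replicate 2 (0.26).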
